A study of Mus musculus with 36 samples.

Results

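Homeostatic microglia genes are a set of transcripts by which resting microglia of the adult central nervous system are recognised. The set described here held 9 genes, P2ry12, Tmem119, Sall1, Cx3cr1, Csf1r, Siglech, Gpr34, Fcrls and Olfml3, taken by gene symbol from the 55487 genes of the count matrix. All 9 were found once and all 9 had counts in every one of the 36 libraries. They were followed across tissue, injury and time.

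RNA was sequenced from the unmyelinated optic nerve (UON), the myelinated optic nerve (MON) and the retina of young adult C57BL/6 mice, with no transgene or engineered allele in any group. The mice were bilaterally naïve, or had received an optic nerve crush 3 days (3D) or 2 weeks (2W) before collection, or a microbead injection into the eye that raises its pressure as a model of glaucoma 3D, 2W or 6 weeks (6W) before. These 6 conditions in 3 tissues made 18 groups, each of 2 libraries. One library was a pool of RNA from 2 females and the other a pool from 2 males, so n = 2 pools per group throughout, the spread between pools also holds any difference between the sexes, and the 3 tissues came from the same mice.

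Microglia are the resident macrophages of the brain, retina and optic nerve. They live on signalling through the receptor encoded by Csf1r, whose ligands are Csf1 and Il34, and TGF-beta signalling together with the transcription factor Sall1 holds them in their resting identity. After damage to neurons or myelin, microglia commonly lower several of these transcripts while they raise phagocytic and lipid-handling genes, and macrophages that enter from the blood carry Csf1r and Cx3cr1 but little Sall1, P2ry12 or Tmem119. In bulk tissue, fewer cells of a type and less RNA per cell cannot be told apart.

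The members lie at separate places in the genome (GRCm38, with Csf1r given further on). P2ry12 is at chr3:59216272-59262871, Fcrls at chr3:87250758-87263738 and Olfml3 at chr3:103722222-103738001, all on the minus strand. Tmem119 is at chr5:113793729-113800516, Sall1 at chr8:89027235-89044162 and Cx3cr1 at chr9:119901616-120069879, also on the minus strand, while Siglech at chr7:55768178-55778925 and Gpr34 at chrX:13632089-13640858 are on the plus strand. P2ry12 overlaps Med12l, Gpr34 overlaps Cask, Csf1r overlaps Hmgxb3 on the opposite strand, and the annotated span of Cx3cr1 overlaps 9 other genes. Whether the counting used strand was not stated, so reads in these overlaps may belong to either gene.

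RefSeq promoter windows (GRCm38.p6, up to 250 bases before an annotated start) were found for 6 of the 9 members, in 8 windows. They were searched on both strands for GAGGAA, the core bound by PU.1, the myeloid factor encoded by Spi1, for its longer form GAGGAAGT, which contains the core, for TGANTCA, the AP-1 motif, and for CTANNNNTAG, the MEF2 motif. Of 32851 mouse promoter windows, 23.25% held GAGGAA, 2.44% GAGGAAGT, 6.75% TGANTCA and 3.2% CTANNNNTAG. Among the members' windows 1 held GAGGAA, that of Fcrls, and 1 held CTANNNNTAG, that of Cx3cr1. The sequences below are shown 5′ to 3′ on the gene's strand because these 3 members differed in the libraries: Fcrls rose in crushed MON, Cx3cr1 was unlike between the pools of a group, and P2ry12 passed no injury test. Capitals mark the motif. The Fcrls site, chr3:87263651-87263680 on the minus strand, lies 144 bases before the RefSeq start. The Cx3cr1 site, chr9:120068344-120068373 on the minus strand, lies 67 bases before its RefSeq start. Both sites are still inside the annotated span of their gene. The Fcrls window overlaps 3 annotated exons of the gene and the Cx3cr1 window 1. The P2ry12 window, chr3:59262986-59263235 on the minus strand, held none of the 4 motifs. That window lies outside the annotated span of P2ry12. The stretch checked just after its RefSeq start was in no annotated transcript of the gene, unlike those of Fcrls and Cx3cr1.
Fcrls: caagtctgtaaaGAGGAAggacgtttgctt
Cx3cr1: gtcacagcatCTAAAGATAGggtaccacac
P2ry12: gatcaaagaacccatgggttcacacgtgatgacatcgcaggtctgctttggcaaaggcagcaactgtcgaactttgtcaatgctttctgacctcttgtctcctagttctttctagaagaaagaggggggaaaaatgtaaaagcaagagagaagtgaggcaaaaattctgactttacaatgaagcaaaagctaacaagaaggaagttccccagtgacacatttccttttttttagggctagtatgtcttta

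The libraries held between 16.2 M and 78.1 M (mega) estimated counts (median 43.3 M), where 1 read added about 2 counts. The naïve MON pools were the most unequal pair used below, with 78.1 M counts for females and 17.8 M for males. Levels are given in FPKM (fragment counts scaled by transcript length and library size) where genes are compared with each other, since this unit is per length, and otherwise also in CPM (counts scaled by library size alone). Each test was the quasi-likelihood test of edgeR, fitted across all genes, and a gene was called where its Benjamini-Hochberg adjusted p was under 0.05 and its log2 fold change (log2FC) over 1 in size. With 2 pools a group, a result that missed these limits does not show that groups were alike.

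In naïve mice all 9 members were called higher in both parts of the optic nerve than in the retina, and the members differed among themselves far more in level than in this direction. Csf1r, the receptor on which microglial survival depends (GRCm38 chr18:61100598-61132149, plus strand), had the highest mean of the 9 in each tissue. Its level was 41.2 FPKM in the female and 33.7 in the male UON pool, 69.1 and 68.1 in MON, and 2.60 and 2.00 in retina. Both nerve tissues were far above the retina, and the UON and MON pools did not overlap. The next highest in the nerve was Tmem119, a membrane protein that separates microglia from most other macrophages, with 37.6 and 23.3 FPKM in UON, 58.5 and 53.1 in MON and 1.12 and 1.67 in retina.

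At the low end of the order was Sall1, the transcription factor, with 6.45 and 6.11 FPKM in UON, 7.40 and 7.39 in MON, and 0.119 and 0.109 in retina. Its retinal level was the lowest of any member in any tissue. Gpr34, a lysophosphatidylserine receptor, stood next to it in UON at 7.45 ± 0.211 FPKM (SD, n = 2), above Sall1 at 6.28 ± 0.242 in both pools. Fcrls, an Fc receptor-like scavenger protein listed here with the microglial genes, was at 5.34 ± 1.07 FPKM in UON and 5.74 ± 2.12 in MON. The Fcrls pools of UON and MON overlapped, as did those of Olfml3, a secreted olfactomedin-like protein, at 15.9 ± 1.44 and 15.4 ± 2.51 FPKM. Neighbours in the order were often closer than their pools. In UON, P2ry12 (12.1 ± 4.54 FPKM), Siglech (8.31 ± 3.06) and Gpr34 overlapped in turn, and so did Cx3cr1 (18 ± 4.23) and Olfml3. In MON, Siglech (19.3 ± 1.63) and Olfml3 each overlapped with P2ry12 (20.5 ± 11.8), and in retina P2ry12 (1.58 ± 1.25), Olfml3 (1.41 ± 0.330) and Tmem119 (1.40 ± 0.390) did.

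**Figure D1:**
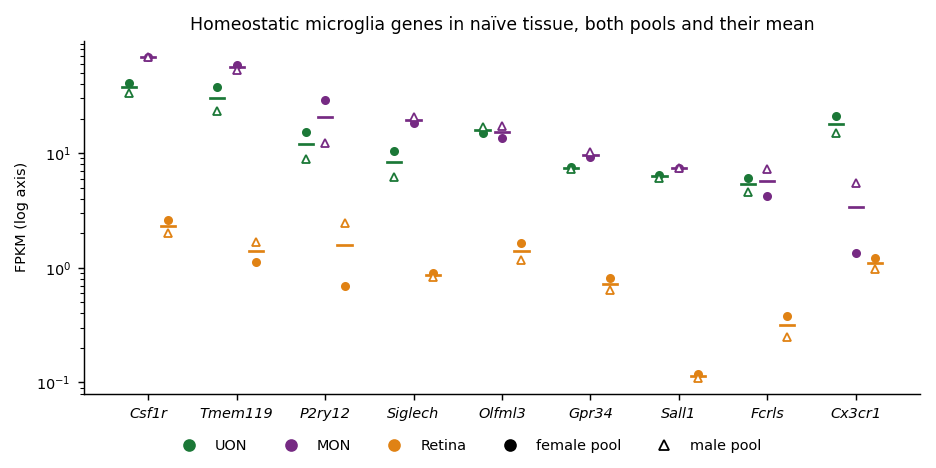
Levels of the 9 homeostatic microglia genes in naïve UON (green), MON (purple) and retina (orange), in FPKM on a log axis, with the female pool as a filled circle, the male pool as an open triangle and the mean of both as a bar. The nerve points of every gene lie above its retina points, closest for Cx3cr1 in MON at 1.34 and 5.45 FPKM against 1.22 and 0.979.

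Between UON and retina all 9 members passed the test, beside 18.2% of all 23685 genes tested that were called higher in UON and 31.7% called in either direction. Their median log2FC was 4.43, against -0.17 over all genes. The largest difference was that of Sall1, with a log2FC of 6.13 ± 0.28 (SE) or 70.2-fold (edgeR adjusted p = 2.49e-05), and the smallest was that of P2ry12, the purinergic receptor that guides microglial processes to ATP, at 3.61 ± 0.42 (edgeR adjusted p = 0.000618). The 12 pan-myeloid genes of a separate list, which all microglia and macrophages carry, were also all called higher in UON, with a median of 4.65.

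Between MON and retina all 9 were again called higher, where 16.7% of all genes were called higher and 27.6% in either direction. The median of the members was 4.60 and that of the 12 pan-myeloid genes, all called, was 5.50. Sall1 differed by 6.44 ± 0.28 or 86.9-fold (edgeR adjusted p = 2.58e-05) and Tmem119 by 5.76 ± 0.36. The smallest difference was that of Cx3cr1, the receptor for neuronal fractalkine, at 1.93 ± 0.60 (edgeR adjusted p = 0.0477). This call was lost without the male naïve MON pool (log2FC 0.62) or the male naïve retina pool (1.40). It was also lost in 3 of the other settings (0.89 to 1.98).

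Within the naïve nerve 2 members were called, in opposite directions, beside 9.63% of all genes. Siglech, a sialic acid-binding lectin of microglia, was lower in UON (10.5 and 6.15 FPKM) than in MON (18.1 and 20.4), with a log2FC of -1.29 ± 0.29 (edgeR adjusted p = 0.0370). Its pools did not overlap, but the call was lost without the male UON pool (-0.97) or either MON pool (-1.45 without the female, -1.09 without the male). Cx3cr1 was higher in UON (21.0 and 15 FPKM) than in MON (1.34 and 5.45), with a log2FC of 2.60 ± 0.60 or 6.04-fold (edgeR adjusted p = 0.0394). Leaving out 1 library moved this between 1.59 (without the female MON pool) and 3.92 (without the male MON pool), and a fit of all 36 libraries lost the call.

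The other 7 members had estimates below 0, and with Siglech this made 8 of 9, with a median of -0.42 against -0.06 over all genes. Csf1r was at -0.92 ± 0.21 (edgeR adjusted p = 0.0374), short of the fold limit, and Tmem119 at -0.96 ± 0.29 (edgeR adjusted p = 0.0911). None of the 12 pan-myeloid genes was called between the nerve parts, and their median was -0.82.

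Signals known to keep microglia in place were also unequal between the nerve parts. Of the 12 genes listed as upkeep signals and their receptors, 5 were called higher in UON than in MON, among them Il34, a ligand of Csf1r, at a log2FC of 2.08, Tgfb2 at 2.42, Tgfb3 at 1.19 and Cx3cl1, the ligand of Cx3cr1, at 1.04. Il34 stood at 64.6 and 77.1 FPKM in UON, 15.5 and 23.7 in MON, and 5.43 and 4.08 in retina. Csf1, the other ligand of Csf1r, was higher in the MON pools (41.0 and 37.9 FPKM) than in the UON pools (26.6 and 17.2) and lowest in retina (0.576 and 1.06). Cx3cl1 was highest in retina, where its receptor was lowest, with 29.7 and 26.1 FPKM in retina, 16.9 and 19.6 in UON and 9.77 and 6.97 in MON.

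After injury the members did not move as one. In 135 tests, of 9 members in 15 comparisons of an injured group with the naïve group of the same tissue, 3 were called and all were higher: Fcrls in MON 3D and 2W after crush, and Gpr34 in MON 2W after crush. A further 33 had an unadjusted p under 0.05, so 36 in all. Here and below, the share of all genes at that unadjusted limit is not given, nor the share called under other settings. Such counts therefore do not set the members apart from other genes. No member was called lower in this fit. With no filter on low counts edgeR called Siglech lower in MON at 3D after crush (log2FC -2.03, edgeR adjusted p = 4.66e-05), and so it did in 3 of the fits that left out 1 crush library (-2.36 to -4.06). In the filtered fit no gene at all was called in UON at 3D after crush or in the nerve at any time of glaucoma (0% in each). The naïve pools of a tissue were the control of all 5 of its comparisons, which are therefore not independent of each other.

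**Figure D2:**
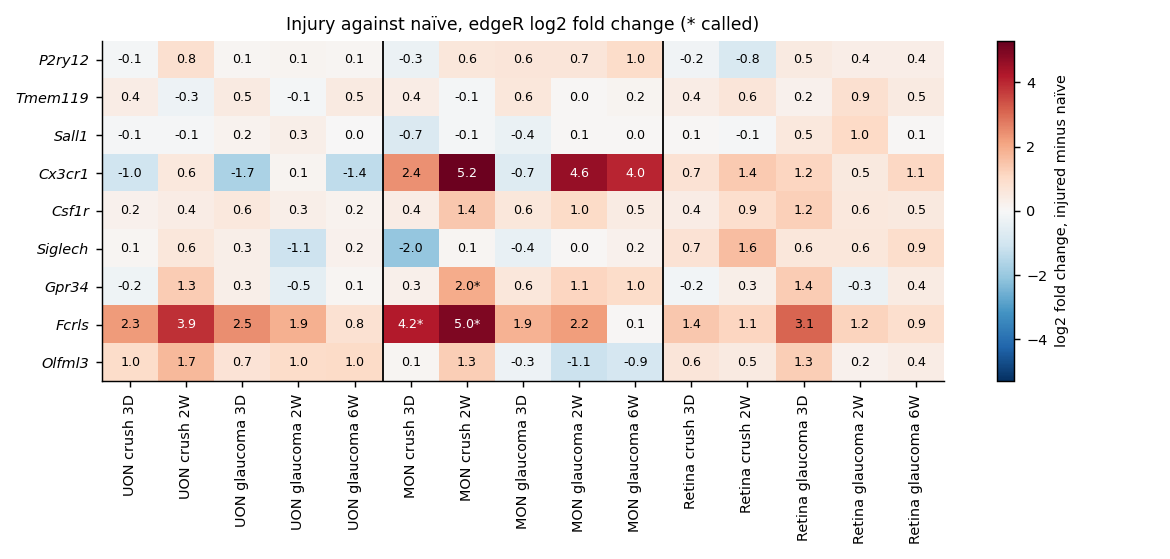
edgeR log2 fold change against naïve for the 9 members (rows) in the 15 comparisons by tissue, model and time (columns), with an asterisk where the gene was called. The 3 asterisks are at Fcrls and Gpr34 in MON after crush. The Fcrls and Csf1r rows are above 0 in all 15 columns, while the P2ry12, Tmem119 and Sall1 rows hold both signs and stay between -0.83 and 1.04.

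Fcrls had the largest called log2FC of the members. In MON it was at 4.24 and 7.24 FPKM in the naïve female and male pools, 108 and 107 at 3D after crush and 279 and 122 at 2W. All 4 crush pools were above both naïve pools. The log2FC was 4.18 ± 0.48, or 18.2-fold, at 3D (edgeR adjusted p = 0.00988) and 4.97 ± 0.51, or 31.3-fold, at 2W (edgeR adjusted p = 0.0126). In these comparisons 4.26% (3D) and 2.72% (2W) of all 19988 genes tested were called. Without the female naïve MON pool neither call held (log2FC 3.68 with edgeR adjusted p = 0.0707 at 3D, and 4.38 with edgeR adjusted p = 0.0866 at 2W).

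The same gene was higher in the crushed UON pools, from 6.10 and 4.59 FPKM in naïve to 24.8 and 28.4 at 3D and 108 and 57.4 at 2W. The naïve and crush pools did not overlap, and all 10 injured UON libraries, glaucoma included, were above both naïve pools in CPM, as for 0.874% of 17624 genes. The 2W estimate was 3.86 ± 0.38, with an edgeR adjusted p of 0.0629 in a comparison that called 0.0281% of 21368 genes, and the 3D estimate 2.25 ± 0.36 (edgeR adjusted p = 0.283). DESeq2, a fit with no filter on low counts, limma on FPKM and a fit of all 36 libraries each called Fcrls at 2W. Of these, DESeq2 also called it at 3D (log2FC 2.26, DESeq2 adjusted p = 2.41e-05).

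In microbead glaucoma the Fcrls values were lowest at the last time in both nerve parts. In UON the pools were at 38.4 and 23.3 FPKM at 3D, 23.4 and 19.9 at 2W and 8.35 and 9.93 at 6W. Each time point was above both naïve pools. In MON they were 54.3 and 9.59, then 59.8 and 18.7, then 11.4 and 4.26, with the female pool above the male pool each time. The 6W male pool was level with the naïve female pool (4.24 FPKM). The retina had 0.380 and 0.247 FPKM in naïve and 1.55 and 3.35 at 3D of glaucoma (log2FC 3.09 ± 0.81, edgeR adjusted p = 0.615), and edgeR called none of the Fcrls glaucoma estimates. DESeq2 called Fcrls in glaucoma in UON at 3D and 2W, in MON at 2W and in retina at 3D, and edgeR without the low-count filter called it in UON at 3D. All 15 Fcrls estimates were above 0, and 12 had an unadjusted p under 0.05.

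Gpr34 was called in 1 comparison. Its MON level was 9.16 and 10.1 FPKM in naïve, 16.7 and 8.61 at 3D after crush and 47.7 and 37.3 at 2W. Both 2W pools were above the others, and the 3D pools lay on either side of naïve. The 2W log2FC was 1.97 ± 0.33, or 3.91-fold (edgeR adjusted p = 0.0347), and the call was lost without the female (1.64, edgeR adjusted p = 0.192) or the male (2.36, edgeR adjusted p = 0.0792) naïve MON pool. The crushed UON had 18.1 and 22.2 FPKM at 2W against 7.6 and 7.30 in naïve, with a log2FC of 1.34 ± 0.36 that was not called (edgeR adjusted p = 0.480).

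Csf1r estimates were above 0 in all 15 comparisons, between 0.18 and 1.41, and none was called. In MON all 10 injured libraries were above both naïve pools, a count reached by 4.34% of 17624 genes. The crush 2W pools were at 209 and 184 FPKM against 69.1 and 68.1, with a log2FC of 1.41 ± 0.31 (edgeR adjusted p = 0.0598). DESeq2, limma on FPKM and a fit without the sex term each called it. The glaucoma 2W pools were at 189 and 106 FPKM, the female one above the male crush 2W pool (1.0 ± 0.35, edgeR adjusted p = 0.489).

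P2ry12, Tmem119 and Sall1, the members used most often to tell microglia from other macrophages, passed no injury test. P2ry12 estimates ran from -0.83 to 0.96, with 11 above 0 and 4 below, and none had an unadjusted p under 0.05. Its MON pools were at 28.8 and 12.1 FPKM in naïve, 17.0 and 4.78 at 3D after crush and 16.5 and 21.0 at 2W. The naïve pools already spanned the 2W values in FPKM. In CPM the 2W female pool (35.3) was just above both naïve pools (34.4 and 17.4). The 3D male pool was the lowest of the 12 MON libraries. In the retina its lowest library held 27 estimated counts, which leaves little precision there.

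Tmem119 estimates ran from -0.25 to 0.87. In MON it was at 58.5 and 53.1 FPKM in naïve, 81.4 and 69.2 at 3D after crush and 78.3 and 42.3 at 2W. The 2W pools fell on both sides of naïve in FPKM. In CPM they were at 180 and 108 against 184 and 143, with neither above both naïve pools. The highest nerve library was the male MON pool at 3D of glaucoma, at 119 FPKM beside 59.6 in the female pool.

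The most even member in the nerve was Sall1, which kept between 27.7 and 55.1 CPM in all 12 UON libraries and between 23.9 and 55.4 in all 12 MON libraries. Its lowest estimate was that of MON at 3D after crush, -0.75 ± 0.33 (edgeR adjusted p = 0.244). Those pools were at 5.50 and 3.67 FPKM, both below the naïve 7.40 and 7.39. The 2W pools at 6.19 and 8.45 were on either side of naïve in FPKM. In CPM the 2W pools were at 35.1 and 52.1 against 54.7 and 46.9, with neither above both naïve pools.

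**Figure D3:**
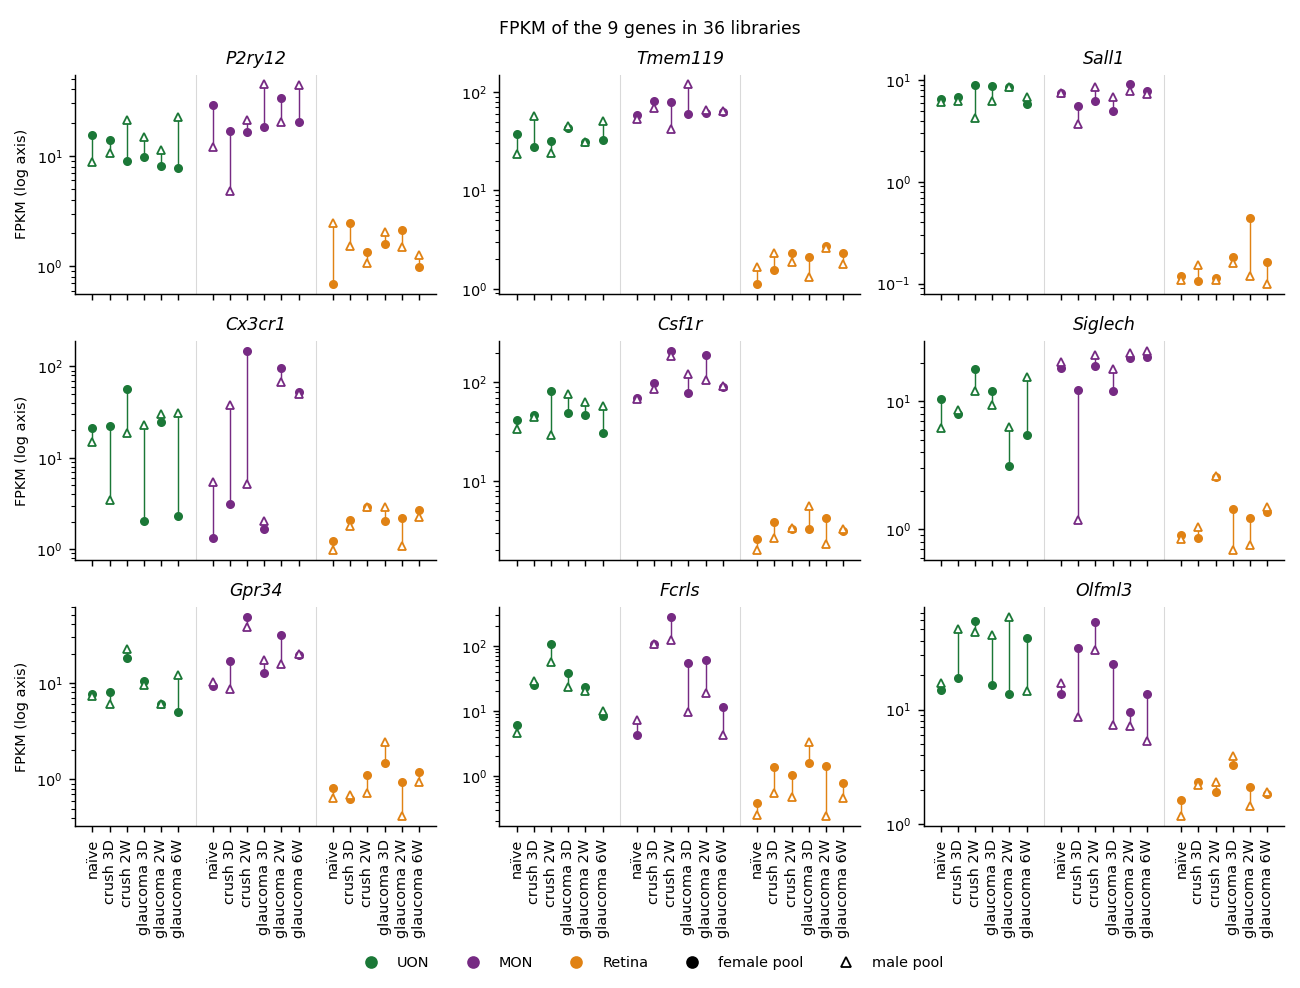
FPKM of the 9 members in all 36 libraries on a log axis, by tissue, condition and time, with the female pool as a filled circle and the male pool as an open triangle. Fcrls climbs from 4.24 and 7.24 in naïve MON to 279 and 122 at 2W after crush, Sall1 stays between 3.67 and 9.03 in the nerve, and the Cx3cr1 pools of a group often lie far apart.

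With the low-count filter and every library kept, edgeR called neither Siglech nor Olfml3 in any injury comparison. DESeq2 called Olfml3 in UON at 2W after crush and in retina at 3D of glaucoma. Siglech had its lowest nerve level in the male MON pool at 3D after crush, with 12.3 and 1.19 FPKM in the female and male pools against 18.1 and 20.4 in naïve. Both were below naïve but differed from each other by 8.85-fold in CPM, and the estimate was -2.04 ± 0.81 (edgeR adjusted p = 0.208). By 2W the pools were at 18.8 and 23.0 FPKM. In the retina, all 10 injured libraries were above both naïve pools in CPM (2.33% of all genes), but in FPKM 3 of them were not. The highest were the crush 2W pools, at 2.55 and 2.59 FPKM against 0.906 and 0.835, with a log2FC of 1.63 ± 0.36 (edgeR adjusted p = 0.188).

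Olfml3 estimates were of both signs in MON and of 1 sign in UON. Its 5 UON estimates were above 0, with 59.5 and 47.9 FPKM at 2W after crush against 14.9 and 16.9 in naïve (1.74 ± 0.45, edgeR adjusted p = 0.480). In MON they ran from -1.14 at 2W of glaucoma, where the pools were at 9.5 and 7.14 FPKM against 13.6 and 17.1, to 1.29 at 2W after crush, where they were at 58.0 and 33.2. Neither end was called in this fit (edgeR adjusted p = 0.558 and 0.254), and without the low-count filter edgeR called the crush 2W estimate.

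The retinal members were low, and most injured libraries lay above the naïve ones. At least 8 of the 10 injured libraries were above both naïve pools in CPM for 6 of the 9 members, Siglech, Fcrls, Cx3cr1, Olfml3, Csf1r and Tmem119, where 12% of all genes reached this count. The same held for 3 members in MON (Csf1r, Fcrls and Gpr34, beside 13.4% of all genes) and for 2 in UON (Fcrls and Csf1r, beside 7.47%). The injured libraries shared 2 naïve pools in each tissue, so 1 low naïve pair moves all 10 counts together. No retinal member was called by edgeR in any of the 5 comparisons, in which 0.0221% (crush 3D), 0.313% (crush 2W), 0.00429% (glaucoma 3D), 0% (glaucoma 2W) and 0.00858% (glaucoma 6W) of all genes were called.

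Cx3cr1 set itself apart by the distance between pools of the same group. The pools differed by more than 4-fold in CPM in 5 of its 18 groups, or 27.8%, whereas 7.08% of the pairs over 17624 genes did so. At 2W after crush, the MON pools were at 626 CPM in females and 25.6 in males, a ratio of 24.4, while Csf1r in the same pools was at 1042 and 969 CPM. The 24 nerve libraries fell into 9 between 7.08 and 25.6 CPM and 15 between 73.1 and 626, with none between.

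**Figure D4:**
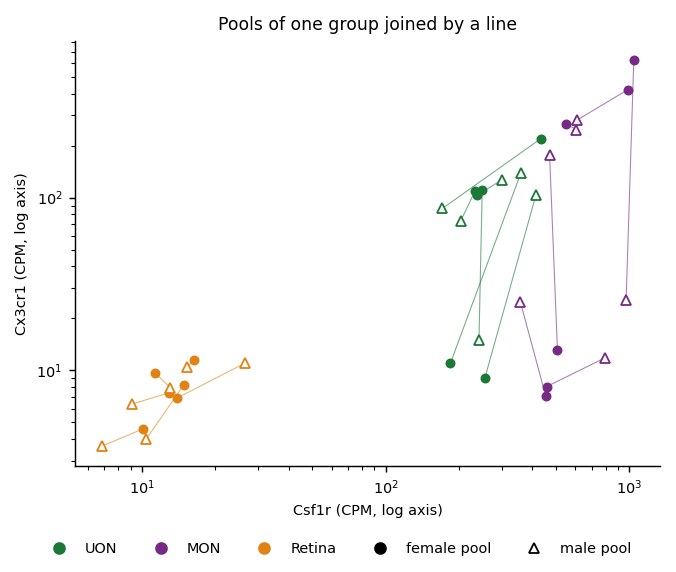
Cx3cr1 against Csf1r in CPM in the 36 libraries, both on log axes, with a line joining the 2 pools of a group (green UON, purple MON, orange retina). The retina libraries form 1 cloud, while the nerve libraries lie in an upper band of 15 at 73.1 to 626 CPM of Cx3cr1 and a lower band of 9 at 7.08 to 25.6, at like levels of Csf1r.

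The low set held 3 UON libraries, the male pool at 3D after crush (15.1 CPM) and the female pools at 3D (9.08) and 6W (11) of glaucoma. It held 6 MON libraries, among them both naïve pools (7.08 and 24.9 CPM) and both pools at 3D of glaucoma (8.07 and 11.9). Each MON comparison of Cx3cr1 with naïve therefore rests on 2 libraries of the low set, as does its call between naïve UON and MON. Its estimates in MON were 4.61 ± 0.63 at 2W (edgeR adjusted p = 0.232) and 4.05 ± 0.61 at 6W (edgeR adjusted p = 0.849) of glaucoma, and 5.19 ± 2.05 at 2W after crush (edgeR adjusted p = 0.269). DESeq2 called both glaucoma estimates, and edgeR without the low-count filter called all 3. The crush 2W estimate ran from -0.40 without its female pool to 6.99 without its male pool.

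The transcripts to which the Cx3cr1 counts were assigned also varied among nerve libraries. In the retina 100% of the Cx3cr1 counts of every library went to ENSMUST00000064165. In the nerve, ENSMUST00000177637 took 0 to 76.1% and ENSMUST00000215016 0 to 81.9%. ENSMUST00000177637 had counts only in some libraries of the high set. In UON these were the female pool at 2W after crush (76.1%) and the male pool at 6W of glaucoma (64.2%). In MON they were the male pools at 2W (75.2%) and 6W (33.2%) of glaucoma. ENSMUST00000215016 had counts in both sets. It took 81.9% in the high UON female pool at 3D after crush and 73.5% in the low MON male pool at 2W. In naïve UON, the female pool had 72.8% of its counts on ENSMUST00000215016 and the male pool had 100% on ENSMUST00000064165, although both were in the high set. Whether the assignment of reads to overlapping transcripts and genes takes part in the low levels was not tested.

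The retinal Cx3cr1 values were even. The naïve pools were at 1.22 and 0.979 FPKM and the crush 2W pools both at 2.88, with a log2FC of 1.38 ± 0.24 (edgeR adjusted p = 0.106) that DESeq2 called, and 9 of 10 injured libraries were above both naïve pools in CPM.

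More of the other myeloid genes than of the members were called in the crushed MON. Of 12 pan-myeloid genes, 5 were called higher at 3D and 9 at 2W, with medians of 1.76 and 2.31, where the medians of the 9 members were 0.27 and 1.29 and those of all genes -0.005 and 0.05. Cd68, a lysosomal protein of phagocytes, rose by a log2FC of 3.99 at 3D and 3.59 at 2W. Of the 11 genes listed for disease-associated microglia, 7 and 8 were called higher, with medians of 2.60 and 3.06. They included Spp1 (osteopontin) at 8.83 and 6.08 and Itgax at 3.69 and 5.41.

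Some genes listed for border macrophages, for monocytes and neutrophils and for cell division were also called higher. Of 9 border macrophage genes, 4 were called higher at 3D and 1 at 2W, with Ms4a7 at 7.47 and 7.18. The summed level of that list was 25.8 and 22.4 CPM in the naïve MON pools, 280 and 665 at 3D after crush and 212 and 69.5 at 2W. Of 8 monocyte and neutrophil genes, 2 and 1 were called, with Ccr2, the receptor by which monocytes leave the blood, at 5.53 and 4.63, and the summed level went from 3.02 and 6.01 CPM to 50.2 and 104 and then 29.5 and 11. All 8 cell division genes were called at 3D and 4 at 2W. Which cells carried these transcripts, and the part of such cells in the rise of Fcrls and Gpr34, was not tested.

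Factors and signals of microglial identity rose in part. Of 9 transcription factors listed for microglia and macrophages, 4 were called higher at 3D and 5 at 2W, among them Runx1 (2.50 and 2.38), Spi1 (2.06 and 1.96) and Irf8 (1.65 and 2.46), which macrophages of all origins use. Of the 12 upkeep signals 1 and 3 were called, with Nrros, which activates latent TGF-beta on microglia, at 2.21 and 2.42. The medians of 10 further homeostatic genes were -0.09 and 1.08. No gene of these lists was called by edgeR in an injury comparison of UON, of retina or of glaucoma.

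The balance between the members and general myeloid genes was followed as the mean log2 CPM of the 9 members minus that of the 12 pan-myeloid genes. In MON it was -0.98 and -1.08 in the naïve pools, -2.18 and -3.13 at 3D after crush and -1.94 and -1.87 at 2W. The crush pools did not overlap with naïve. For glaucoma the MON values were -2.05 and -1.44 at 3D, -1.15 and -1.08 at 2W, and -0.80 and -0.63 at 6W, where both pools were above naïve. Without Cx3cr1 the 6W values were -0.996 and -0.83 against -0.63 and -0.95 in naïve, no longer above.

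In UON the balance was -0.43 and -0.56 in naïve and -1.35 and -1.42 at 2W after crush. In retina it was -0.30 and -0.48 in naïve and -1.07 and -1.14 at 2W after crush. Both pools lay below both naïve pools in 11 of 15 injured groups, of which 4 each were MON and retina groups and 3 were UON groups, and in 10 of 15 when Cx3cr1 was left out. In 11 of 15 groups the members themselves lay above both naïve pools and in none below. The pan-myeloid genes lay above in 14 of 15, all but UON at 6W of glaucoma.

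**Figure D5:**
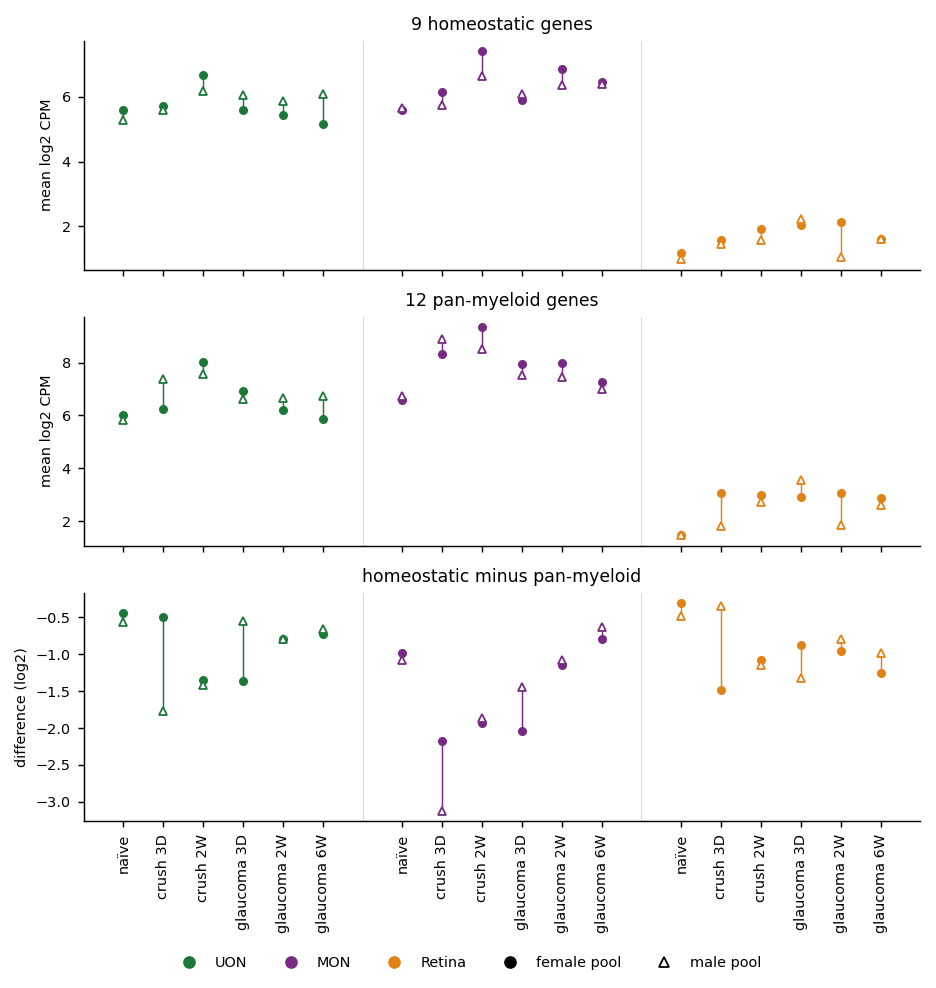
Mean log2 CPM of the 9 members, mean log2 CPM of the 12 pan-myeloid genes, and the difference of the first minus the second, for both pools of the 18 groups. The difference is lowest at -2.18 and -3.13 in MON at 3D after crush, against -0.98 and -1.08 in naïve MON.

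Between later and earlier times of one model, 0 of 81 member tests were called by edgeR, 21 had an unadjusted p under 0.05, and 0.0154% of all gene tests in the 9 comparisons were called. DESeq2 called 8 and a fit with no filter on low counts 5. Gpr34 in crushed MON went from 16.7 and 8.61 FPKM at 3D to 47.7 and 37.3 at 2W, with the 2W pools above, and had the lowest adjusted p of this family (log2FC 1.70 ± 0.32, edgeR adjusted p = 0.105). Fcrls in UON went down from 3D to 6W of glaucoma without overlap (log2FC -1.64 ± 0.31, edgeR adjusted p = 0.692).

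Crush and glaucoma were compared at 3D and 2W, the times they share. Of 54 member tests edgeR called 0, with 14 at an unadjusted p under 0.05, and 0.0382% of all gene tests were called. DESeq2 called 5, a fit with no filter 6 and a fit of all 36 libraries 1. The lowest adjusted p was that of Fcrls in UON at 2W, with 108 and 57.4 FPKM after crush and 23.4 and 19.9 in glaucoma (log2FC 1.99 ± 0.34, edgeR adjusted p = 0.122). Olfml3 in MON at 2W was at 58.0 and 33.2 FPKM after crush and 9.5 and 7.14 in glaucoma (2.38 ± 0.49, edgeR adjusted p = 0.260).

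Whether the response differed between tissues was tested as an interaction, in 135 member tests. EdgeR called 0, with 19 at an unadjusted p under 0.05, while 0.0533% of all gene tests were called. DESeq2 called 5, limma on FPKM 4 and a fit with no filter 3. The Fcrls response at 2W after crush was larger in MON than in retina by 3.62 ± 0.63 (edgeR adjusted p = 0.0504). With the pool as a block, which pairs the tissues of the same mice, it was 3.72 (edgeR adjusted p = 0.0312) and the only one called.

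Male and female pools were compared within each tissue and model, where edgeR called 0 of 54 member tests and 5 had an unadjusted p under 0.05. DESeq2 also called 0. Over all genes 0.0324% of the tests were called. The lowest unadjusted p was that of Cx3cr1 in the UON of the crush libraries, lower in males by a log2FC of -1.59 ± 0.45 (edgeR adjusted p = 0.910). In the UON of the glaucoma libraries, which share the naïve pools, the Cx3cr1 estimate had the other sign (1.72). The crush fit held a low-set male pool at 3D, at 15.1 CPM against 110 in females.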

How the data were processed

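Bulk RNA was sequenced from 36 libraries, and groups and pool sex were taken from the sample labels. The authors aligned reads to GRCm38 with HISAT2 2.2.1 and assembled and quantified them with StringTie 1.3.0. They deposited estimated counts per gene and transcript, made from coverage and read length, and tables of FPKM and TPM per gene. A few negative FPKM and TPM values were set to 0. TPM served only to check the order of levels. The deposited counts were fitted with edgeR 4.0.16 in R 4.3.3 (TMM scaling, filterByExpr at 10 counts per library and 15 in total, terms for group and pool sex, quasi-likelihood test). Each fit held the naïve and injured libraries of 1 tissue and model, the naïve libraries of all tissues, 1 model in all tissues for the interactions, or both models of 1 tissue for crush against glaucoma. The alternatives were DESeq2 1.42.0, the tool the authors used, RLE scaling, no low-count filter, no sex term, 1 fit of all libraries, limma 3.58.1 on log2(FPKM + 1), a pool block, and each library left out. The edgeR fits of the naïve libraries, of MON after crush and of crush in all tissues were first tested on simulated data. This was done for a single comparison of each, and the other fits and alternatives were not tested in this way.

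Pools of the same sex and condition in the 3 tissues come from the same mice, and the pool block pairs them on that ground. Each pool is an equal mix of RNA from 2 mice, and each group has 2 pools. The edgeR p-values rest on the spread of pools left after the sex term. That spread is taken over all groups of a fit, not only those compared. The members and all gene lists were chosen with earlier results of these data known. All 9 members are described, and up to 4 genes of each other list were named, those called with the largest change in a comparison. The naïve levels of the ligand gene Csf1 were added after its values were seen. For P2ry12 the 10 genes with the most similar levels were named. Some genes of these lists are not reported here.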

Additional observations from a re-analysis of the deposited data

Results flagged for a closer look

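The 5 results here stood out because both pools of one group lay above the naïve pools in CPM and both pools of the group compared with it lay below, although edgeR called none of the differences. At 2W of glaucoma, the Siglech response in UON was lower than that in retina by a log2 difference of -1.69 ± 0.67 (edgeR adjusted p = 1). At 3D after crush, the Siglech response in MON was lower than that in retina by -2.67 ± 0.93 (edgeR adjusted p = 0.316). At 2W of glaucoma, the Gpr34 response in UON was lower than that in MON by -1.72 ± 0.61 (edgeR adjusted p = 0.576). Within UON, Gpr34 was higher at 2W than at 3D after crush by 1.56 ± 0.36 (edgeR adjusted p = 0.506) and lower at 2W than at 3D of glaucoma by -0.83 ± 0.40 (edgeR adjusted p = 1). DESeq2 called the Gpr34 difference between times after crush (1.59 ± 0.43, DESeq2 adjusted p = 0.01655). In FPKM the pattern was kept only by the Gpr34 results of glaucoma.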

How the results depend on the processing

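The naïve tissue comparisons gave 17 to 20 called member tests under the other settings against 20, and 18 to 21 with each library left out. Counts of called injury tests (3 of 135) became 15 with DESeq2, 11 with no low-count filter and 5 with limma on FPKM, and 0 to 7 with each library left out. Counts between times (0) became 8 with DESeq2 and 5 with no filter, and 0 to 3 with a library left out. Counts between models (0) became 5 with DESeq2, 6 with no filter and 1 with all libraries in 1 fit, and 0 to 1 with a library left out. Interaction counts (0) became 5 with DESeq2, 3 with no filter, 4 with limma on FPKM and 1 with the pool block for pairing, and 0 to 3 with a library left out. Sex counts (0) became 0 to 2 with a library left out. The sex comparisons were not run in the fit of all libraries. Shares of all genes called under these other settings are not given, so the counts do not set the members apart from other genes. Of single-gene values, 119 gained a call and 14 lost one with the sign kept, and 1 changed sign where either fit had called it. Changes of sign where neither fit made a call were not counted. The 1 counted was Cx3cr1 in MON, 2W minus 3D after crush. It went from 2.78 to -2.38 without the female 2W pool, and to 5.01 without the male. The cause of these shifts was not tested. With 2 pools a group, and retinal members at as few as 16 estimated counts, small changes could not be detected.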

Other observations

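The genes whose levels followed P2ry12 most closely over the 36 libraries, after centring on each tissue's mean, were on none of the gene lists used here. The highest correlations of log2 CPM were those of Gm48016 (Pearson r = 0.68), Catip (0.68), Gm6145 (0.67), Cdkn2b (0.66), Ccdc28a (0.64), Fam183b (0.63), Crnde (0.62), Efcab1 (0.61), Ttc30a2 (0.60) and Ldhb (0.59), against a median of -0.01 over 17615 genes. Among the other members the values were 0.53 for Gpr34, 0.43 for Siglech, 0.36 for Sall1, 0.29 for Csf1r, 0.16 for Cx3cr1, 0.05 for Tmem119, -0.03 for Fcrls and -0.11 for Olfml3. The genes named first were picked as the highest of the 17615, none of which is a member. Several members also stood high among these genes. Of the 17615 values, 99.7% lay below that of Gpr34, 98.3% below Siglech, 95.2% below Sall1 and 91.3% below Csf1r. The shares were 77.8% for Cx3cr1, 60.0% for Tmem119, 45.4% for Fcrls and 31.2% for Olfml3. The closest pairs of members were Csf1r with Gpr34 (0.63) and Fcrls with Olfml3 (0.57). The points share libraries, depth and naïve pools, so these are descriptions over 36 libraries.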
